A study of Drosophila melanogaster with 18 samples.

Results

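The integrated stress response genes described here are crc, which encodes the fly ATF4, and PEK, Gcn2, Thor, AsnS, trbl and mnd. They were chosen by name as a set of 7 of the 12301 genes in the deposited expression table. All 7 were present, and all 7 were among the 11557 genes with an FPKM value (fragments per kilobase, scaled to library size) reaching 1 in 3 or more of the input libraries. The values come from input libraries of an ac4C-RIP-seq study, in which RNA pieces carrying N4-acetylcytidine (ac4C) are captured with an antibody and input RNA is sequenced beside them. Whole third-instar Drosophila melanogaster larvae of 3 genotypes were sampled, with 3 biological replicates each and 40 larvae per sample. Larvae labelled NAT10 and Xrp1 RNAi carried the driver Dats-GAL4 with UAS-NAT10-RNAi and Xrp1-RNAi. Larvae labelled NAT10 RNAi carried Dats-GAL4 and UAS-NAT10-RNAi, and control larvae were Dats-GAL4/+. The enzyme NAT10 acetylates cytidine in RNA, and Xrp1 is a bZIP transcription factor induced by stress. All 3 genotypes carried the driver, which the labels give as da-GAL4 with tub-GAL80ts, and the control carried it with no RNAi construct. GAL80ts is a temperature-sensitive repressor of GAL4, so that expression through the whole body starts only on warming. Egg laying took 24 h at 18 °C, and knockdown began with a shift of first-instar larvae to 30 °C. The labels give a harvest at 120 h for NAT10 knockdown larvae and at 72 h for control larvae, and none specifically for larvae with both constructs. Genotype and harvest time therefore cannot be told apart between NAT10 RNAi and control. Whether harvest time also differed in the comparisons with both constructs is not known.

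The integrated stress response couples stress to protein synthesis. Kinases such as PEK, the fly PERK activated by unfolded protein in the endoplasmic reticulum, and Gcn2, activated when amino acids are scarce, phosphorylate the translation initiation factor eIF2alpha. General translation then falls, while the mRNA of the bZIP factor ATF4 is translated better through upstream open reading frames in its leader. In flies ATF4, encoded by crc, activates genes including Thor, the inhibitor 4E-BP of cap-dependent translation. In mammals asparagine synthetase and tribbles pseudokinases are among ATF4 targets, as are amino acid transporters of the family to which mnd belongs. Because ATF4 is controlled mainly at translation, transcript levels do not measure its protein.

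Reads in genes per input library numbered 15518179 to 21848490 with both constructs, 17076581 to 24272099 with the NAT10 RNAi label, and 17291110 to 19223499 in control. Xrp1 averaged 41.7 ± 1.85 FPKM in libraries labelled NAT10 and Xrp1 RNAi, 385 ± 0.925 FPKM in those labelled NAT10 RNAi and 211 ± 2.82 FPKM in control (SD, n = 3 each). The transcript of NAT10, listed as l(1)G0020, averaged 6.08 ± 0.0875 FPKM with both constructs, 5.63 ± 0.369 FPKM in libraries labelled NAT10 RNAi and 5.19 ± 0.247 FPKM in control. It was not lower in either knockdown, so transcript level does not check that label, and every direction given below is between libraries as labelled. Replicate 1 with both constructs stood apart from its fellows: a chi-square of counts per degree of freedom was 8.15 and 11.65 against replicates 2 and 3, and 3.30 between those. Markers of larval tissues, all of them above 0 in every library, also moved with genotype. The summed level of 6 salivary gland genes was 3639 to 3790 FPKM with both constructs, 3831 to 3963 in libraries labelled NAT10 RNAi and 29102 to 33308 in control. For 6 muscle genes the sum was 6135 to 6338 FPKM with both constructs, 8069 to 8251 with NAT10 RNAi and 3083 to 3169 in control. For 6 fat body genes it was 11514 to 12854 FPKM with both constructs, 8163 to 8400 with NAT10 RNAi and 10735 to 10905 in control. The summed level of 6 midgut genes was 298 to 357 FPKM with both constructs, 534 to 549 with NAT10 RNAi and 237 to 250 in control. Hemocyte genes, 5 in number, summed to 71.3 to 78.5 FPKM with both constructs, 143 to 145 with NAT10 RNAi and 66.3 to 67.3 in control. The 5 imaginal disc genes summed to 82.9 to 92.8 FPKM with both constructs, 73.1 to 75.5 with NAT10 RNAi and 121 to 126 in control. The 5 neuron genes summed to 144 to 151 FPKM with both constructs, 205 to 206 with NAT10 RNAi and 178 in control. In whole larvae fewer cells of a type and less RNA per cell cannot be told apart, and the part of tissue makeup in the results below was not tested.

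The pathway genes did not move as a group. In larvae labelled NAT10 RNAi, both kinases and trbl were higher than in control, while Thor, AsnS and mnd were lower. There crc was higher on the deposited scale, at 0.24, but was not called after rescaling (0.05; limma adjusted p = 0.312), by edgeR (0.06; adjusted p = 0.177) or by DESeq2 (0.05; adjusted p = 0.349). With Xrp1 RNAi added, PEK, Gcn2, crc, trbl and Thor were lower than with NAT10 RNAi alone, mnd was higher and AsnS was not called. In larvae with both constructs, Thor, AsnS and crc were lower than in control, and PEK was higher by 0.17, a call lost in 4 settings given with that gene. Differences were tested with limma on log2(FPKM + 1), with Benjamini-Hochberg adjustment over all 11557 genes and a threshold of 0.05. The comparisons share libraries, so they are not independent of each other.

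**Figure D1:**
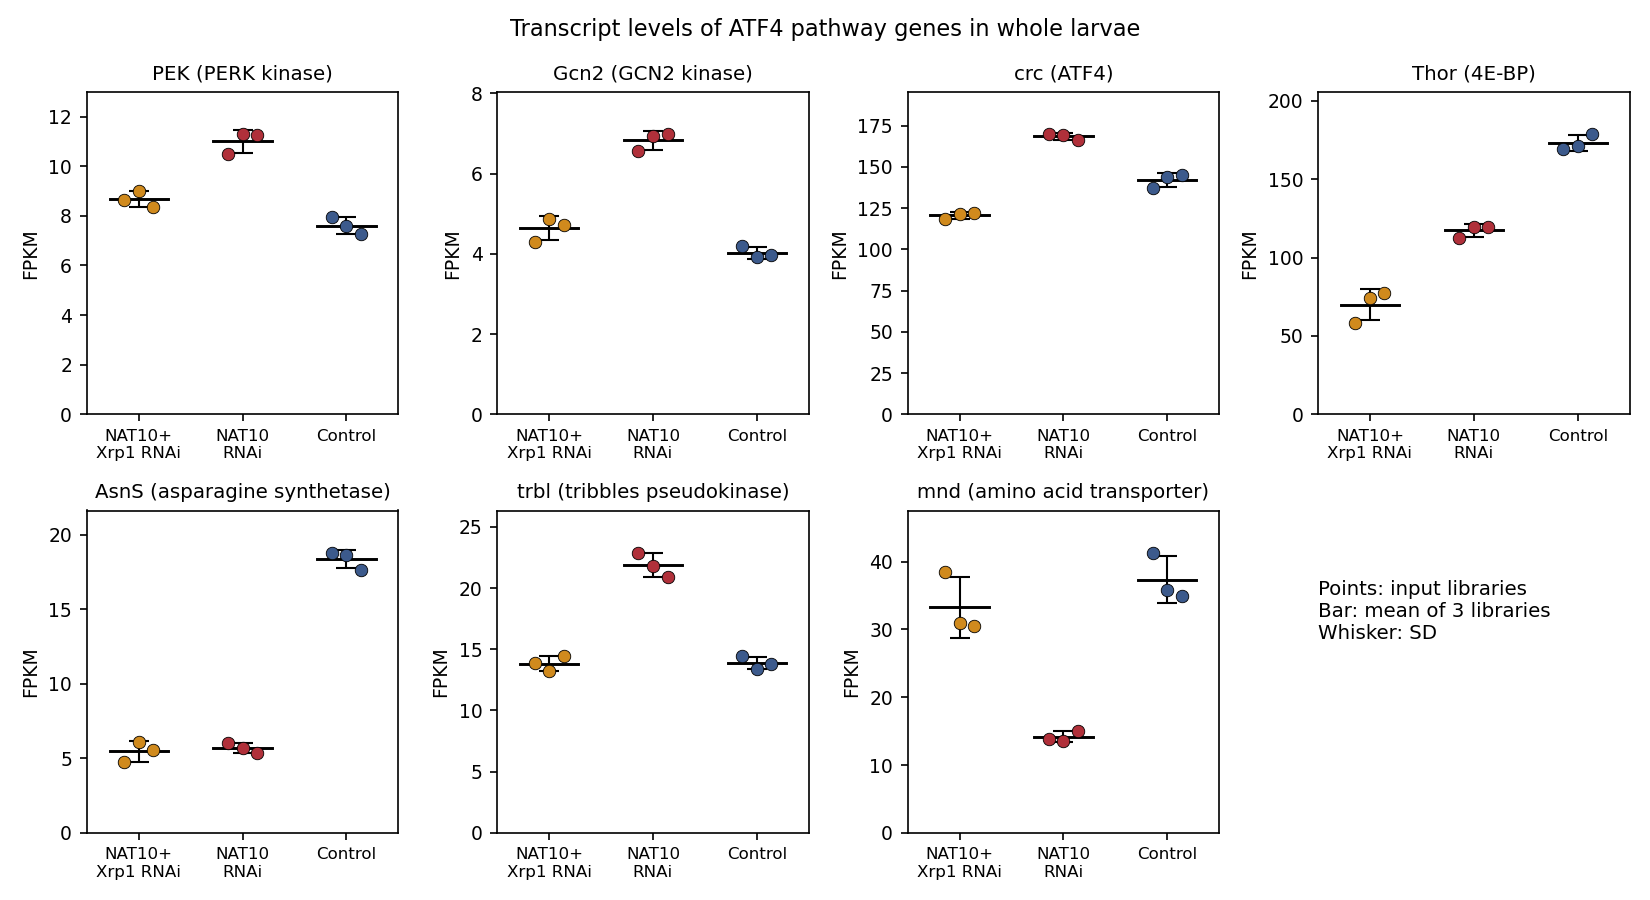
Transcript level (FPKM, y axis of each panel, starting at 0) of the 7 genes in each of the 9 input libraries, by genotype as labelled. Points are libraries, bars are means of 3 libraries and whiskers are the SD. AsnS is low in all 6 RNAi libraries, while mnd is low in the 3 libraries labelled NAT10 RNAi, at 13.6 to 15.1 FPKM.

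The eIF2alpha kinases were both expressed at a low level. PEK (FBgn0037327, BDGP6 3R:5458563-5464753, minus strand) stood at 8.64, 9.001 and 8.35 FPKM with both constructs, at 10.5, 11.3 and 11.2 FPKM in libraries labelled NAT10 RNAi and at 7.95, 7.60 and 7.26 FPKM in control. The 3 genotypes did not overlap, and NAT10 RNAi was the highest. Its log2 fold change was 0.48 ± 0.05 (SE; limma adjusted p = 1.67e-05) for NAT10 RNAi against control. It was 0.17 ± 0.05 for both constructs against control (limma adjusted p = 0.0281). That smaller call did not hold when control replicate 2 (limma adjusted p = 0.0684) or 3 (0.0998) was left out, without replicate 2 of both constructs (0.0888), and when only the 2 genotypes were fitted (0.0571). Between both constructs and NAT10 RNAi it was -0.31 ± 0.05 (limma adjusted p = 0.000509). That value was -0.14 after rescaling (limma adjusted p = 0.0469), -0.18 in edgeR (adjusted p = 0.0045) and -0.16 in DESeq2 (adjusted p = 0.0361).

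Gcn2 (FBgn0019990, 3R:31395660-31401560, plus strand) stood at 4.31, 4.88 and 4.73 FPKM with both constructs, at 6.56, 6.95 and 6.99 FPKM in libraries labelled NAT10 RNAi and at 4.19, 3.92 and 3.96 FPKM in control. No genotypes overlapped, although both constructs and control lay close together. The log2 fold change was 0.64 ± 0.06 (SE; limma adjusted p = 5.2e-06) for NAT10 RNAi against control. With both constructs it was -0.48 ± 0.06 against NAT10 RNAi (limma adjusted p = 6.86e-05). Against control it was 0.17 ± 0.06 and did not pass (limma adjusted p = 0.0523), a value that moved to 0.21 and passed without replicate 1 of both constructs (limma adjusted p = 0.0196). At this low level the pseudocount matters: with 5 in place of 1 the value for NAT10 RNAi against control was 0.39, and that for both constructs against NAT10 RNAi was -0.30, both past the threshold. Gcn2 shares 454 exon bases with PNPase on the opposite strand in the Ensembl annotation, and the strand setting of the counting is not given in the sources used here. PNPase itself held 79 to 160 reads per library, against 384 to 970 for Gcn2.

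The ATF4 gene crc (FBgn0000370, 2L:21310866-21319527, plus strand) was one of the more abundant of the 7 on this per-length scale. It stood at 118, 121 and 122 FPKM with both constructs, at 169.9, 169 and 166 FPKM in libraries labelled NAT10 RNAi and at 137, 144 and 145 FPKM in control. The 3 genotypes were separate, with control in the middle. The log2 fold change was 0.24 ± 0.03 (SE; limma adjusted p = 7.45e-05) for NAT10 RNAi against control and -0.24 ± 0.03 (limma adjusted p = 0.000272) for both constructs against control. The RNAi genotypes differed by -0.48 ± 0.03 (limma adjusted p = 6.93e-07), both constructs being lower.

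The crc difference between NAT10 RNAi and control lay near the shift of the whole transcriptome. The median over all tested genes was 0.17 for NAT10 RNAi against control, 0.00 for both constructs against control and -0.16 for both constructs against NAT10 RNAi. With libraries rescaled to a common median ratio, the crc difference from control was 0.05 for NAT10 RNAi and did not pass (limma adjusted p = 0.312), nor did it in edgeR at 0.06 (adjusted p = 0.177). The lower level with both constructs passed after rescaling, at -0.24 against control (limma adjusted p = 0.000496) and -0.29 against NAT10 RNAi (limma adjusted p = 7.49e-05). All 2515 exon bases of CG46314, a gene model on the same strand, lie in crc exons. CG46314 held 42.3 to 46.2% as many reads as crc in every library, and how shared reads were assigned is not given in the sources used here. Its own log2 fold changes of 0.20, -0.17 and -0.36 in the 3 comparisons had the signs of those of crc.

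Thor (FBgn0261560, 2L:3478434-3479612, plus strand), the 4E-BP that binds the cap-binding protein eIF4E, was lower in both RNAi genotypes. It stood at 58.4, 74.1 and 77.2 FPKM with both constructs, at 113, 119 and 119.7 FPKM in libraries labelled NAT10 RNAi and at 169, 171 and 179 FPKM in control. The genotypes formed 3 separate steps, with the lowest value in replicate 1 of both constructs. Against control, the log2 fold change of NAT10 RNAi was -0.56 ± 0.09 (SE; limma adjusted p = 0.000203) and that of both constructs was -1.30 ± 0.09 (limma adjusted p = 1.48e-06). Both constructs were lower than NAT10 RNAi, at -0.75 ± 0.09 (limma adjusted p = 3.15e-05), and at -0.63 without that replicate. The authors' deposited table for both constructs against control lists Thor at a log2 change of -1.30 (FDR 1.06e-13).

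AsnS (FBgn0270926, 3L:21173118-21174973, plus strand), asparagine synthetase, had the biggest difference from control of the 7 genes in both RNAi genotypes on the log2(FPKM + 1) scale; with a pseudocount of 5 that place went to Thor for both constructs and to mnd for NAT10 RNAi. It stood at 4.72, 6.11 and 5.57 FPKM with both constructs, at 6.05, 5.65 and 5.34 FPKM in libraries labelled NAT10 RNAi and at 18.8, 18.6 and 17.7 FPKM in control. The RNAi genotypes overlapped, and all 6 of their libraries lay below every control library. Set against control, NAT10 RNAi had a log2 fold change of -1.54 ± 0.08 (SE; limma adjusted p = 4.84e-08) and both constructs had one of -1.59 ± 0.08 (limma adjusted p = 1.79e-07). The difference between both constructs and NAT10 RNAi was -0.05 ± 0.08 and did not pass (limma adjusted p = 0.59); over the other settings it ranged from -0.12 to 0.14. The authors' deposited table for NAT10 RNAi against control lists AsnS at -1.88 (FDR 2.71e-27), and the authors' deposited table for both constructs against control lists it at -1.75 (FDR 1.15e-16).

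The gene trbl (FBgn0028978, 3L:20396288-20401609, minus strand) encodes the fly tribbles pseudokinase, which promotes the degradation of String and Slbo and restrains Akt. It stood at 13.9, 13.2 and 14.4 FPKM with both constructs, at 22.9, 21.8 and 20.9 FPKM in libraries labelled NAT10 RNAi and at 14.4, 13.4 and 13.8 FPKM in control. The libraries labelled NAT10 RNAi lay above all others, and the other 2 genotypes overlapped. The log2 fold change was 0.62 ± 0.05 (SE; limma adjusted p = 1.41e-06) for NAT10 RNAi against control. It was -0.63 ± 0.05 (limma adjusted p = 2.03e-06) for both constructs against NAT10 RNAi. Both constructs and control differed by -0.01 ± 0.05, which did not pass (limma adjusted p = 0.949), with a range of -0.03 to 0.03 over the other settings.

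The gene mnd (FBgn0002778, 3L:14985100-14991667, plus strand), minidiscs, encodes an amino acid transporter that takes up leucine. It stood at 38.4, 30.9 and 30.4 FPKM with both constructs, at 13.8, 13.6 and 15.1 FPKM in libraries labelled NAT10 RNAi and at 41.4, 35.8 and 35.0 FPKM in control. The pattern was the opposite of that of trbl: the libraries labelled NAT10 RNAi were lowest and the other 2 genotypes overlapped. The log2 fold change was -1.34 ± 0.09 (SE; limma adjusted p = 4.15e-07) for NAT10 RNAi against control and 1.17 ± 0.09 (limma adjusted p = 1.78e-06) for both constructs against NAT10 RNAi. Both constructs differed from control by -0.17 ± 0.09, which did not pass (limma adjusted p = 0.169). Without replicate 1 of both constructs, the highest of its group, that value was -0.27 and passed (limma adjusted p = 0.0127). The authors' deposited table for NAT10 RNAi against control lists mnd at -1.59 (FDR 4.51e-18).

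In control larvae the order of mean levels was Thor at 173 FPKM, crc at 142, mnd at 37.4, AsnS at 18.4, trbl at 13.9, PEK at 7.60 and Gcn2 at 4.02 FPKM, with no overlap between neighbours over the libraries. In libraries labelled NAT10 RNAi the order was crc at 169, Thor at 117, trbl at 21.9, mnd at 14.2, PEK at 11.01, Gcn2 at 6.83 and AsnS at 5.68 FPKM. There too, neighbours did not overlap. With both constructs it was crc at 121, Thor at 69.9, mnd at 33.3, trbl at 13.8, PEK at 8.66, AsnS at 5.47 and Gcn2 at 4.64 FPKM, and AsnS and Gcn2 overlapped. AsnS thus stood above trbl, PEK and Gcn2 in control and below trbl and PEK in both RNAi genotypes.

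**Figure D2:**
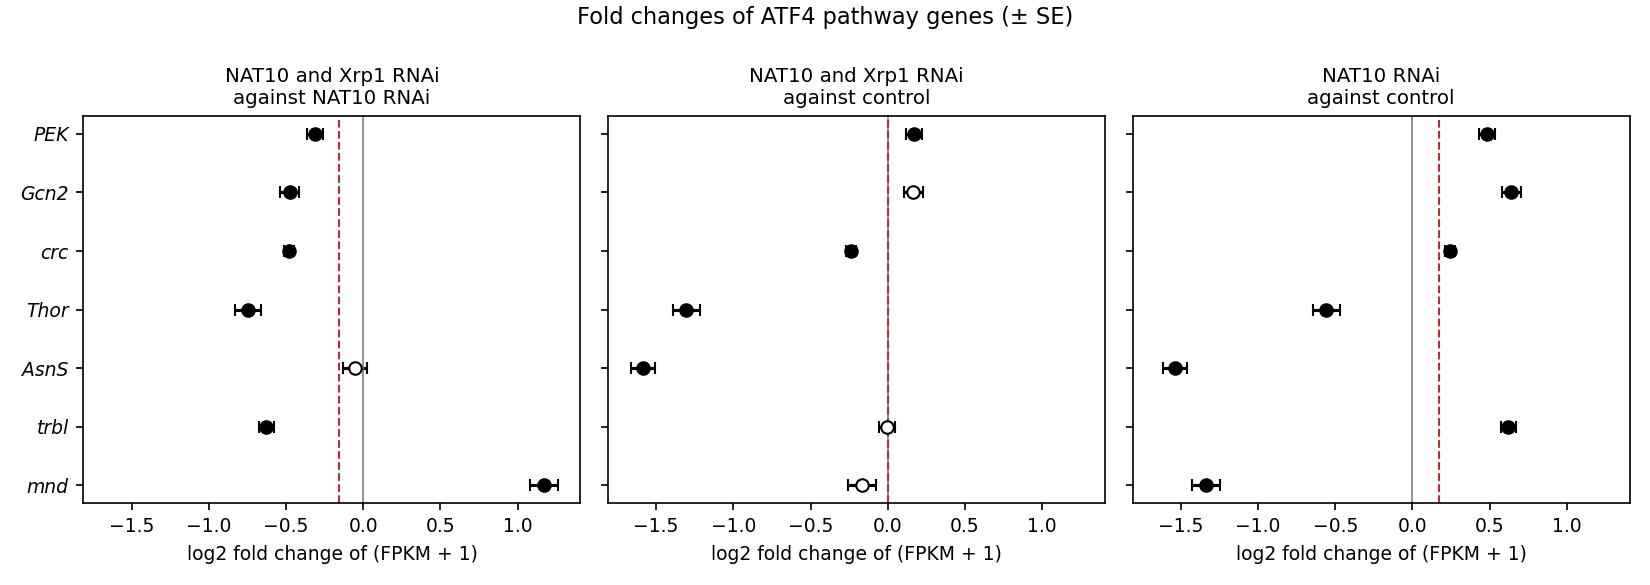
Log2 fold change of FPKM + 1 (x axis) of the 7 genes (y axis) in the 3 comparisons, with the SE as whiskers. Filled points passed limma at an adjusted p under 0.05, open points did not, and the dashed line is the median of all tested genes. For both constructs against control, trbl at -0.01 lies at the zero line and AsnS at -1.59 lies farthest from it.

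Over the 7 genes, the counts have to be read against a transcriptome in which a large share of genes was called. For both constructs against NAT10 RNAi, 1 of 7 was higher and 5 were lower, where 15.2% of all tested genes were higher and 46.1% lower. Against control, both constructs had 1 higher and 3 lower, where 21.5% of all genes were higher and 19.2% lower. Between NAT10 RNAi and control, 4 were higher and 3 lower, where 47.3% of all genes were higher and 18.9% lower. The median log2 fold change of the 7 genes was -0.48, -0.17 and 0.24 in these comparisons. After rescaling, the counts were 1 higher and 5 lower (28.3% and 27.5% of all genes), 2 and 3 (21.3% and 20.6%), and 3 and 3 (31.8% and 31.7%). Rescaling brought the PEK difference to 0.30 between NAT10 RNAi and control (limma adjusted p = 0.000483). Rescaled values for Gcn2 were -0.31 between both constructs and NAT10 RNAi and 0.47 between NAT10 RNAi and control, and in the same order those for trbl were -0.44 and 0.43, all past the threshold. For Thor they were -0.56 and -0.76, and for mnd 1.35 and -1.53. AsnS was at -1.71 after rescaling for NAT10 RNAi against control and at -1.60 for both constructs against control.

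Genes around the pathway were followed in 6 further lists. Reads that could be shared with overlapping genes touch several of the genes named, as given beside them. The shares of all tested genes that each list is read against were 15.2% higher and 46.1% lower for both constructs against NAT10 RNAi, 21.5% and 19.2% for both constructs against control, and 47.3% and 18.9% for NAT10 RNAi against control. After rescaling they were 28.3% and 27.5%, 21.3% and 20.6%, and 31.8% and 31.7%. Of 13 tested genes of eIF2 and start codon selection, which set the rate and site of initiation, 1 was higher and 3 were lower for both constructs against NAT10 RNAi, beside 15.2% and 46.1% of all genes. The counts were 2 and 2 for both constructs against control, and for NAT10 RNAi against control 5 higher and 1 lower. Their medians were -0.07, 0.05 and 0.12, beside -0.16, 0.00 and 0.17 for all genes. After rescaling the counts turned to 5 higher and 2 lower, 2 and 3, and 1 and 4. The initiation factor eIF2D, which can deliver initiator tRNA outside the eIF2 route, averaged 8.51 ± 0.457 FPKM with both constructs, 13.7 ± 0.468 FPKM with NAT10 RNAi and 7.90 ± 0.536 FPKM in control (SD, n = 3). Its log2 fold change was -0.63 between both constructs and NAT10 RNAi (limma adjusted p = 7.17e-06) and 0.72 between NAT10 RNAi and control (limma adjusted p = 1.67e-06), with 6 exon bases shared with a neighbour. Subunits of eIF2 and of its exchange factor eIF2B moved less on the deposited scale. The exchange factor subunit eIF2Bdelta was at -0.28 in NAT10 RNAi against control (44 shared bases). After rescaling eIF2Bdelta was at -0.48 there, beside 0.54 for eIF2D. On the deposited scale eIF2Bepsilon was at 0.35 in that comparison and at -0.29 between both constructs and NAT10 RNAi (153 shared bases). After rescaling eIF2Bepsilon did not pass, at 0.18 and -0.13. Among eIF2 subunits, eIF2gamma was at 0.31 in both constructs against control and shares 352 exon bases with Su(var)3-9 on its own strand. There eIF2alpha was at 0.15 (192 shared bases) and eIF2beta at -0.14 (58 shared bases), and eIF2beta was at -0.35 between both constructs and NAT10 RNAi, or -0.16 after rescaling.

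Enzymes of amino acid and one-carbon metabolism, among them mammalian ATF4 targets, were called in both directions. Of 16, 6 were higher and 8 lower for both constructs against NAT10 RNAi (15.2% and 46.1% of all genes), 3 and 6 for both constructs against control (21.5% and 19.2%), and 8 and 7 for NAT10 RNAi against control (47.3% and 18.9%). Medians were -0.08, 0.01 and 0.09, and after rescaling the counts were 6 and 4 (28.3% and 27.5% of all genes), 3 and 6 (21.3% and 20.6%), and 7 and 7 (31.8% and 31.7%). Glutamine synthetase 2, Gs2, averaged 162 ± 7.41 FPKM with both constructs, 80.4 ± 1.26 FPKM with NAT10 RNAi and 272 ± 5.83 FPKM in control. Its log2 fold change was 1.0 (limma adjusted p = 9.89e-09) for both constructs against NAT10 RNAi, -0.75 (2.06e-07) for both constructs against control and -1.75 (7.98e-11) for NAT10 RNAi against control. Gs1, the other glutamine synthetase, had the same order of genotypes, at 252 ± 7.66 FPKM with both constructs, 142 ± 2.91 FPKM with NAT10 RNAi and 412 ± 7.96 FPKM in control. Glutamate dehydrogenase, Gdh, was at 0.94 in NAT10 RNAi against control (limma adjusted p = 1.04e-07; 7 exon bases shared). The phosphoserine phosphatase aay was at -0.74 between both constructs and NAT10 RNAi (limma adjusted p = 6.67e-08). CG6287, the fly phosphoglycerate dehydrogenase, was at -0.44 between both constructs and control (limma adjusted p = 0.000165).

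Of 11 tested amino acid transporters other than mnd, 2 were higher and 4 lower for both constructs against NAT10 RNAi (15.2% and 46.1% of all genes), 2 and 3 for both constructs against control (21.5% and 19.2%), and 5 and 3 for NAT10 RNAi against control (47.3% and 18.9%). Their medians were -0.10, -0.11 and 0.06, and after rescaling the counts were 4 and 3, 2 and 4, and 2 and 3. CG1139, a transporter of another family than mnd, averaged 23.9 ± 2.41 FPKM with both constructs, 7.10 ± 0.338 FPKM with NAT10 RNAi and 25.9 ± 1.39 FPKM in control, with log2 fold changes of 1.62 (limma adjusted p = 2.99e-08) for both constructs against NAT10 RNAi and -1.73 (9.25e-09) for NAT10 RNAi against control. The transporter path, pathetic, was at -0.89 between both constructs and NAT10 RNAi, at -0.48 between both constructs and control and at 0.41 between NAT10 RNAi and control, all called by limma. CG7255 was at 0.35 between both constructs and NAT10 RNAi and at -0.25 between NAT10 RNAi and control. For both constructs against control, CD98hc, the heavy chain with which transporters of the mnd family pair, was at -0.27, and gb, genderblind, was at 0.28 with 865 exon bases shared with an antisense RNA.

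Genes of the unfolded protein response of the endoplasmic reticulum, the stress that PEK senses, were called in both directions on the deposited scale. Of 21, 7 were higher and 7 lower for both constructs against NAT10 RNAi (15.2% and 46.1% of all genes), 5 and 10 for both constructs against control (21.5% and 19.2%), and 4 and 9 for NAT10 RNAi against control (47.3% and 18.9%), with medians of -0.01, -0.13 and -0.12. After rescaling most of those called lay on one side: 11 higher and 2 lower for both constructs against NAT10 RNAi (28.3% and 27.5% of all genes), 5 and 9 for both constructs against control (21.3% and 20.6%), and 3 and 15 for NAT10 RNAi against control (31.8% and 31.7%). The chaperone BiP, Hsc70-3, averaged 1329 ± 89.7 FPKM with both constructs, 905 ± 10.5 FPKM with NAT10 RNAi and 1473 ± 19.3 FPKM in control. Its log2 fold change was 0.55 (limma adjusted p = 3.06e-06) for both constructs against NAT10 RNAi and -0.70 (limma adjusted p = 3.18e-07) for NAT10 RNAi against control. Ero1L, the oxidase that forms disulphide bonds, was at 0.66 for both constructs and at 0.64 for NAT10 RNAi against control, called in both. Der-1, a factor of protein export from the endoplasmic reticulum for degradation, was at -0.93 for both constructs against control (limma adjusted p = 4.56e-08). Herp was at 0.52 for NAT10 RNAi against control. Hrd3 (190 exon bases shared) and Gp93 (101 shared) were at 0.47 and 0.43 for both constructs against NAT10 RNAi, and Hrd3 at 0.52 for both constructs against control.

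Thor acts below TOR kinase on the cap-binding complex. Of 16 genes of TOR and cap binding, 2 were higher and 8 lower for both constructs against NAT10 RNAi (15.2% and 46.1% of all genes), 3 and 6 for both constructs against control (21.5% and 19.2%), and 7 and 4 for NAT10 RNAi against control (47.3% and 18.9%). Medians were -0.10, -0.04 and 0.08, beside -0.16, 0.00 and 0.17 for all genes. After rescaling the counts were 6 and 4, 4 and 6, and 3 and 8. The eIF4E paralogues eIF4E4, eIF4E5 and eIF4E7 were at 0.76, 0.48 and 0.71 for NAT10 RNAi against control. As paralogues they can share reads, so their separate values are uncertain. Between both constructs and NAT10 RNAi, eIF4E5 was at -0.68 and eIF4E4 at -0.58. The TOR inhibitor scyl, a fly REDD1, averaged 379.7 ± 19.0 FPKM with both constructs, 539.8 ± 13.2 FPKM with NAT10 RNAi and 522 ± 11.4 FPKM in control. It was at -0.51 for both constructs against NAT10 RNAi (limma adjusted p = 2.57e-06) and at -0.46 for both constructs against control (limma adjusted p = 1.48e-05). Its paralogue chrb was at -0.31 and the scaffold eIF4G1 at -0.30 for both constructs against control.

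Of 16 other bZIP factors tested, the family to which ATF4 belongs, 4 were higher and 8 lower for both constructs against NAT10 RNAi (15.2% and 46.1% of all genes). Between both constructs and control 2 were higher and 6 lower (21.5% and 19.2%), and for NAT10 RNAi against control 6 and 5 (47.3% and 18.9%). Medians were -0.18, -0.03 and 0.10, and after rescaling the counts were 6 and 5, 2 and 5, and 5 and 7. One of the 16 is Xrp1, itself targeted, at -3.18 between both constructs and NAT10 RNAi, -2.31 between both constructs and control and 0.87 between NAT10 RNAi and control. The C/EBP factor slbo averaged 16.0 ± 0.779 FPKM with both constructs, 1.25 ± 0.0377 FPKM with NAT10 RNAi and 16.7 ± 0.411 FPKM in control. Its log2 fold change was 2.92 (limma adjusted p = 3.22e-11) for both constructs against NAT10 RNAi and -2.98 (limma adjusted p = 2.07e-11) for NAT10 RNAi against control. Pdp1 was at -1.01 for both constructs against NAT10 RNAi and at 1.32 for NAT10 RNAi against control. For both constructs against control, Atf3 was at 0.62 and Irbp18, which dimerises with Xrp1, was at -0.50 with 95 exon bases shared.

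**Figure D3:**
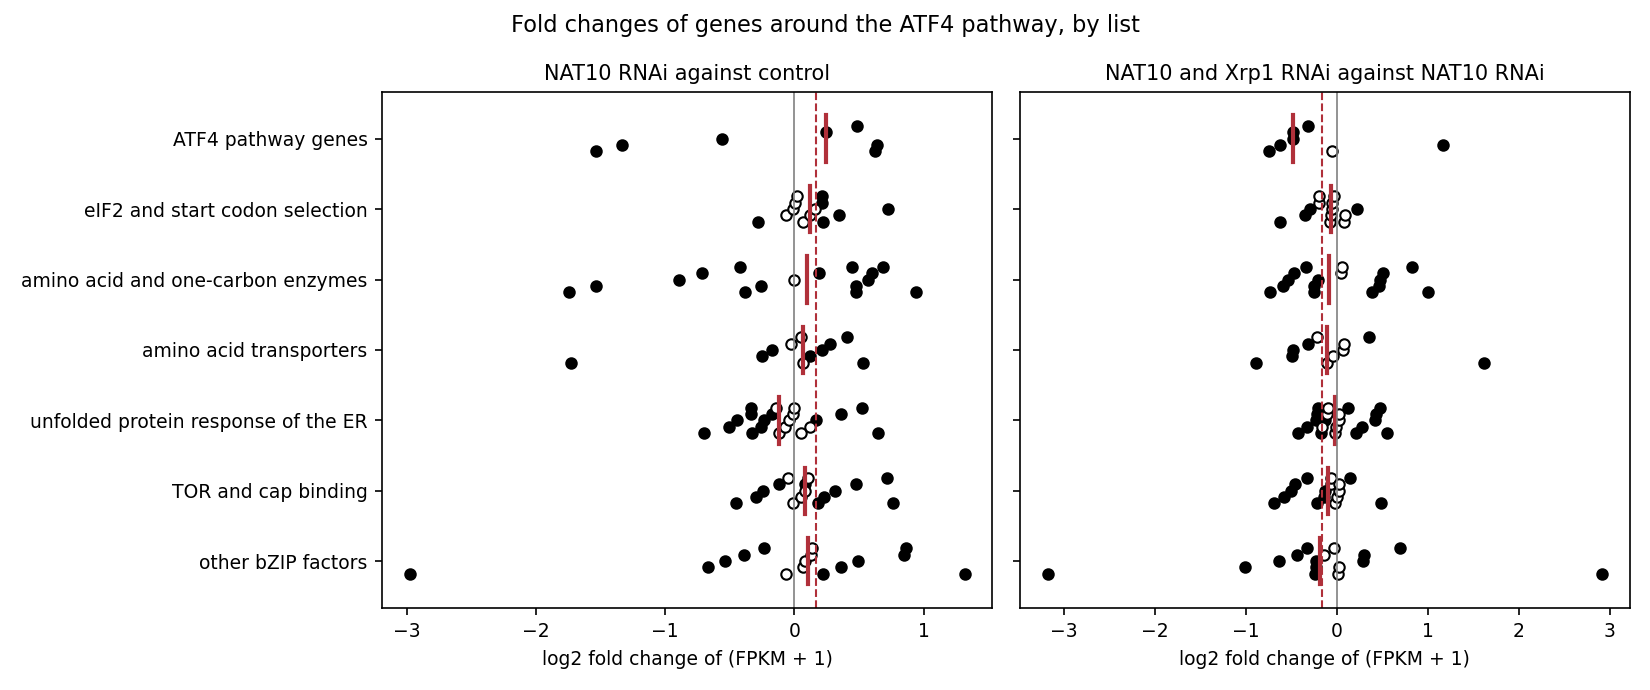
Log2 fold change of FPKM + 1 (x axis) of every tested gene of the 7 lists (y axis), for NAT10 RNAi against control and for both constructs against NAT10 RNAi. Filled points passed limma at an adjusted p under 0.05, red bars are list medians and the dashed line is the median of all tested genes. The outermost points in the bZIP row are slbo at -2.98 and 2.92 and Xrp1 at -3.18.

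Genes with the most similar pattern were found by the root mean square (RMS) difference of log2(FPKM + 1), each gene centred on its control mean, over the 9 input libraries. There were 7168 candidates with a mean of at least 5 FPKM. For crc the nearest were ytr (RMS difference 0.022 log2 units), vig and Pof, and for PEK they were CG17230 (0.0253), Ino80 and Asap. For Gcn2 they were mesh (0.03), CG13895 and CG32392, and for trbl CG32026 (0.0486), CG1988 and CG17237. The genes with larger changes had less close neighbours. For mnd these were CG15309 (RMS difference 0.0801), CG12009 and CG6762. Those of Thor were GILT2 (0.0881), mir-2a-2 and CG8568, and those of AsnS were CG34279 (0.2), Nplp4 and CG31496. CG15309, the nearest to mnd, averaged 128 FPKM with both constructs, 55.4 FPKM with NAT10 RNAi and 142 FPKM in control.

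The deposited ac4C peak lists, 1 per genotype, have no replicates and are described only. A peak was taken for a gene when it overlapped the gene's span on its strand by at least 1 base. Of the 7 genes, 6 had a peak in the list of both constructs, where 80.6% of all genes had one. All 7 had a peak in the list of NAT10 RNAi, beside 81.2% of all genes, and all 7 in that of control, beside 82.4%. Thor was the gene with none in the list of both constructs, the genotype with its lowest mean level, 69.9 FPKM. Whether transcript level bears on which peaks were listed was not tested. Overlapping peaks merged into 33 sites, of which 15 were in all 3 lists, 5 in 2 and 13 in 1. Merged in the same way, the 39925 sites in all genes of the table were in all 3 lists for 42.2%, in 2 for 22.4% and in 1 for 35.5%. Coding sequence was touched by 26 sites, 3 lay only in the 5′ UTR and 4 only in the 3′ UTR. Fold enrichments below are the authors' ratios of captured to input RNA per peak, and the highest one is given where a site holds several.

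Sites of crc in all 3 lists numbered 3, and 2 of them, at 2L:21314419-21314613 and 2L:21314731-21315178, lay in its 5′ UTR. The third, 2L:21318568-21319497, spanned the end of the coding sequence and the 3′ UTR, with a fold enrichment of 2.59 with both constructs, 4.21 with NAT10 RNAi and 2.12 in control. As crc shares 2515 exon bases with CG46314 on the same strand, peaks in those bases cannot be assigned to crc alone. Thor had 1 site in its 3′ UTR, 2L:3479466-3479612, at 2.74 with NAT10 RNAi and 2.18 in control, and a coding one, 2L:3478578-3479380, at 1.70 with NAT10 RNAi and 1.75 in control. For Gcn2 the highest value was at 3R:31401053-31401505, which spans the end of the coding sequence, with a fold of 2.58 with both constructs, 29.3 with NAT10 RNAi and 18.3 in control. The coding site of Gcn2 at 3R:31396582-31397492 joined peaks at different places. With both constructs these were 31396582-31396852 at 1.68 and 31397192-31397492 at 10.7. With NAT10 RNAi the peak was 31396641-31396822 at 1.33, which shares no base with the one at 10.7. The control peak, 31396731-31397342 at 3.33, overlapped each of them, so the folds of this site are not compared between genotypes. PEK had its highest fold at 3R:5461217-5461546, in coding sequence, at 3.25 with both constructs, 2.76 with NAT10 RNAi and 2.52 in control. AsnS had 4 sites, of which 2 were in the control list alone, and trbl had 2, of which 1 was in the control list alone. Input reads of AsnS numbered 136 to 226 with both constructs, 179 to 255 with NAT10 RNAi and 567 to 665 in control. Those of trbl went otherwise, at 511 to 748, 897 to 1259 and 566 to 625 in the same order. The part of read number in the listing of peaks was not tested. Over all genes 13.1% of sites were in the control list alone. Of the 6 sites of mnd, 1 was in all 3 lists, and the highest fold was 14.4 at 3L:14989853-14989974, a site of 122 bases listed with both constructs alone. The highest fold was not the best supported: the authors' FDR was 0.00038 there. It was 1e-40 for the mnd peak of fold 2.24 at 3L:14987925-14988165 in the same list.

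The authors' deposited table of differential peaks for NAT10 RNAi against control, of 1336 rows, holds 2 peaks in these genes. The table for both constructs against control holds 1316 rows and none in them. In the authors' deposited table the peak of mnd at 3L:14991277-14991398, in the 3′ UTR, has a log2 change of 2.06 (FDR 0.000147). Its immunoprecipitated libraries held 40, 63 and 33 reads with NAT10 RNAi and 53, 29 and 45 in control. The input libraries held 7, 8 and 9 reads with NAT10 RNAi and 22, 34 and 26 in control. The captured reads overlapped between genotypes, and the input reads did not, lying lower with NAT10 RNAi as the mnd transcript level does. In the authors' deposited table the coding peak of Gcn2 at 3R:31400275-31400396 has a log2 change of -1.74 (p = 0.00891, FDR 0.172). It held 20, 16 and 19 captured reads with NAT10 RNAi and 20, 15 and 12 in control. Its input reads were 8, 20 and 10 with NAT10 RNAi and 5, 2 and 1 in control. Again the captured reads overlapped and the input reads did not, on counts that reach as low as 1 read.

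**Figure D4:**
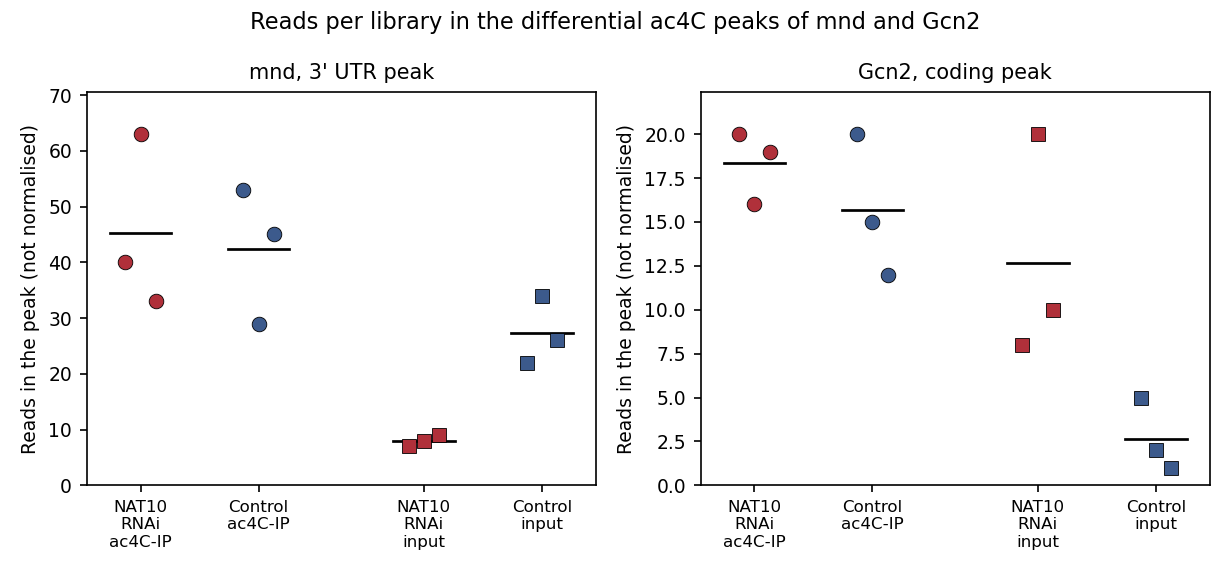
Reads per library (y axis, as deposited and not normalised) in the differential ac4C peaks of mnd and of Gcn2, in captured (ac4C-IP, circles) and input (squares) libraries labelled NAT10 RNAi and control. Bars are means of 3 libraries. Captured reads of the genotypes overlap in both panels, whereas the mnd input reads reach 9 with NAT10 RNAi and start at 22 in control.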

How the data were processed

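Input and ac4C-captured libraries of 3 genotypes were deposited, with 3 replicates of each; expression was taken from the 9 input libraries. Per the submitters' processing notes the tools were STAR 2.7.6a, Subread 1.5.1 with featureCounts, HOMER 4.9.1, fastp 0.23.1, deepTools 3.5.1 and bedtools 2.30.0, with the build BDGP6 and no role stated. No source used here names the peak caller, the strand setting or the use of the 12-base molecular identifiers. The deposited table of all genes holds FPKM per the file headers, the differential tables hold the authors' log2 changes with p-values, FDR and read counts per peak, and the peak lists hold the authors' fold enrichment ratio, a p-value and FDR.

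FPKM values times gene length, divided by a step fitted for each library, gave whole reads in 100% of values (within 0.1). Genes with FPKM of at least 1 in at least 3 libraries were tested with limma 3.58.1 (trend, robust; R 4.3.3) on log2(FPKM + 1), a scale that understates changes of low genes. All 9 libraries entered 1 fit, two-sided, with no block and with Benjamini-Hochberg adjustment at 0.05. Alternatives were pseudocounts of 0.1 and 5, no filter, rescaling by the median ratio, only the 2 genotypes compared, a replicate block, each library left out, and edgeR 4.0.16 and DESeq2 1.42.0 on the recovered reads. Named genes are the 7, up to 3 called genes with the largest changes per list and comparison, without overlap between genotypes and with at least 5 FPKM in the higher one, and the 3 nearest patterns. Members and lists were chosen with earlier results of these data known, and their counts are no independent support. Of the listed names, Gcn1 matched no gene, CG9413 is another name of sbm, and CG13248 and gt were too low to test. Peaks carry no gene names and were matched by overlap with gene spans. Sites were described with Ensembl 115, in which 90.5% of 12242 matched genes have the deposited span. Gcn2 does not: its deposited span ends at 31401560 and its Ensembl span at 31402013. Peaks were matched to the deposited span, so Gcn2 peaks lying wholly beyond its end were not looked for. The p-values of limma, edgeR and DESeq2 set differences against the spread of biological replicates, which these fits share in part across genes. The authors' p-values and FDR are quoted as deposited, and those of the peak lists come from 1 list per genotype. No sequences were used here, and the promoter motif search was not run.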

Additional observations from a re-analysis of the deposited data

Results flagged for a closer look

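The crc gene was singled out because it lay on opposite sides of control in the RNAi genotypes, at -0.24 with both constructs and 0.24 with NAT10 RNAi, both past the threshold. The difference between the RNAi genotypes was itself tested and was -0.48 (limma adjusted p = 6.93e-07; lower in 3 of 3 libraries). After rescaling the value for NAT10 RNAi against control was 0.05 and did not pass, while the difference between the RNAi genotypes was -0.29 and did.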

How the results depend on the processing

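Of 357 recomputed fold changes of the 7 genes, 344 stayed on their side of the threshold (with the same direction where called), 7 lost a call, 6 gained one and 0 called values reversed; values that were not called changed sign for AsnS and trbl, within the ranges given above. The calls lost were those of crc for NAT10 RNAi against control (also by DESeq2, 0.05 at an adjusted p of 0.349) and of PEK for both constructs against control. The calls gained, for both constructs against control, were those of mnd without replicate 1 of both constructs and of Gcn2, also with a pseudocount of 0.1 (limma adjusted p = 0.0486), after rescaling (0.0371), in edgeR (0.00942) and in DESeq2 (0.0384); for Gcn2 the range over all settings was 0.00942 to 0.148. Beyond rescaling and fewer libraries, the cause was not tested. With a replicate block limma called 6 of the 7 genes for both constructs against NAT10 RNAi, 4 for both constructs against control and 7 for NAT10 RNAi against control, the same counts as without it, beside 60.7%, 39.3% and 65.6% of all genes in the blocked fit. Same-numbered libraries correlated at -0.0683 to 0.0797 and differently numbered ones at -0.113 to 0.0886, so no pairing by number was seen. With 3 libraries per genotype a weak pairing could be missed. Over all genes, rescaling changed the called genes from 1761 higher and 5333 lower to 3261 and 3166 for both constructs against NAT10 RNAi, and from 5468 and 2185 to 3668 and 3651 for NAT10 RNAi against control. In edgeR these were 3261 and 3474, and 3931 and 3660, and in DESeq2 3045 and 2836, and 3393 and 3431. With a fold enrichment of at least 2, the genes with a peak were 5 of 7 with both constructs (66.0% of all genes), 6 with NAT10 RNAi (63.4%) and 6 in control (68.8%). Depth limits AsnS most, at 136 to 255 reads in the RNAi libraries, and the reads in single peaks.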
